A study of Homo sapiens with 6 samples.

Results

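The DNA replication genes described here are 45 named genes that act in origin licensing, at the replication fork and in nucleotide supply, and they were chosen by symbol. Their Ensembl identifiers were looked up in a count table of 61661 identifiers, and each of the 45 was found there. All 45 were also among the 17686 genes that passed the filter on low counts. RNA sequencing was done on K562, a human chronic myeloid leukemia line in blast phase that grows in suspension. There were 3 stable lines with 2 libraries each. The shCTR line has the genotype label WT, and the study's methods describe a lentiviral control carrying a nonsense sequence. The shMETTL3 and shMETTL14 lines carry the genotype labels METTL3 knockdown and METTL14 knockdown. The methods describe the METTL3 shRNA as driven by a U6 promoter in a lentivirus with GFP and puromycin resistance, and the METTL14 construct is not described in the sources used here. All 3 lines were grown in RPMI1640 with serum and were collected in logarithmic growth, and their tissue label is Pleural_effusion. No label says that the 2 libraries of a line came from separate cultures, so p-values measure only the spread between these libraries, which may be technical.

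Replication starts with licensing in G1, when the origin recognition complex (ORC), CDC6 and CDT1 load the MCM2-7 helicase onto DNA and geminin (GMNN) later blocks a further round. CDC45 and the GINS complex switch the helicase on in S phase, and polymerases alpha, delta and epsilon then copy the strands with the sliding clamp PCNA, its loader RFC, the single-strand binding protein RPA, and FEN1 and LIG1, which finish Okazaki fragments. Many of these genes are transcribed from late G1 by E2F factors held back by the retinoblastoma family, and E2F1 is itself such a target. METTL3 and METTL14 form the core of the enzyme that writes N6-methyladenosine (m6A) on mRNA.

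Because E2F1 and RRM2 had the largest called rises and ORC2 and ORC6 the largest called falls of the members against shCTR, the DNA just before their start sites was read from RefSeq on GRCh38.p14. Each line gives bases 5′ to 3′ on the gene's own strand, ending at the base before the RefSeq start. Capitals mark TTTNNCGC, the core of an E2F motif, and CCAAT, the core of an NF-Y motif, on either strand.
E2F1, chr20:33686386-33686635, minus strand: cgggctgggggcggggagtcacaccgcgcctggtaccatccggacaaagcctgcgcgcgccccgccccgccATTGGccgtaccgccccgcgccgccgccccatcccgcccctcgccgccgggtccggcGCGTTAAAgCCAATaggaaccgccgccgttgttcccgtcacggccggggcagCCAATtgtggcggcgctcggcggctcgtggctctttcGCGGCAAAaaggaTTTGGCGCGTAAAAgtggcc
ORC6, chr16:46689409-46689658, plus strand: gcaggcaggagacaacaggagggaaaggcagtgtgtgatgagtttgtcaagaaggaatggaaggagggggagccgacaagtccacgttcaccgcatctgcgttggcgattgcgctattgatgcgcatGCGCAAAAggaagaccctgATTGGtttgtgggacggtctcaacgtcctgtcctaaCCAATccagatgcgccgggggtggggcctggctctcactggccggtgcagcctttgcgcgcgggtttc
ORC2, chr2:200963661-200963910, minus strand: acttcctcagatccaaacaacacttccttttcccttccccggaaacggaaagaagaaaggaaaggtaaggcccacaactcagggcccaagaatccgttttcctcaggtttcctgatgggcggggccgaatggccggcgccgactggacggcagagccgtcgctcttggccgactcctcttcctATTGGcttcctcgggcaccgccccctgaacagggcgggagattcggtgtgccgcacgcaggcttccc
The E2F1 stretch held the E2F letters at 4 places, 122, 33, 20 and 14 nt before the start, the last 2 of which overlap, and CCAAT at 3 places. ORC6 had 1 match to the E2F letters, 123 nt before the start, and 2 to CCAAT, while ORC2 had none and 1. GENCODE places 19, 16 and 20 of these 250 bases of E2F1, ORC6 and ORC2 in a first exon. The 250 bases before the RefSeq start of RRM2, chr2:10122489-10122738 on the plus strand, lie in exons of longer GENCODE transcripts of that gene, so 20 bases are shown around each of its 3 CCAAT matches.
RRM2, 123 nt before the start: cagCCAATgggaagggtcgg
RRM2, 93 nt before the start: cagCCAATgggaagggccgg
RRM2, 66 nt before the start: aagCCAATgggaagggccgg
The 15 bases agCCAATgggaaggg were shared by these places, and no match to the E2F letters was found in the RRM2 stretch.

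Promoter entries were available for 39 members, and their 250 bases before the start were searched on both strands. TTTNNCGC was found in 17 of the 39 (43.6%), against 5.92% of 35116 promoters of that length. CCAAT was found in 23 (59%, against 32%), GGGCGG, the core of an SP1 motif, in 27 (69.2%, against 42.6%), and TTTGAA, the core of the cell cycle homology region of mitotic genes, in 1 (2.56%, against 13.3%). The E2F letters were present for 2 of 6 members that rose in shMETTL3 cells, 2 of 4 that fell and 13 of 29 that were not called. GINS2, E2F1, ORC3 and ORC6 were the called members with a match, so genes with these letters were found among the rises and among the falls. A match describes letters in a window and is not evidence of binding.

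The libraries held between 19292574 and 20115304 counts. METTL3 was at 90.5 and 90.3 CPM (reads relative to the TMM-scaled library size) in shCTR and 52.5 and 46.7 in shMETTL3 cells, and METTL14 was at 33.2 and 34.2 in shCTR and 19.1 and 20.6 in shMETTL14 cells. Log2 fold changes were -0.87 (edgeR adjusted p = 3.44e-07) and -0.76 (edgeR adjusted p = 1.40e-05), so each knockdown line held less of its target's mRNA than shCTR. The 9 K562 markers summed to 1722 to 1736 CPM in shCTR, 1902 to 1907 in shMETTL3 and 1730 to 1748 in shMETTL14 cells, and none was at or under the floor of 3 reads. Of markers of other blood cells, the 4 B cell markers summed to at most 3.87 CPM and the 4 T cell markers to at most 6.18 CPM in any library. Of the 6 monocyte and granulocyte markers, LYZ held nearly all of the sum, at 42 and 43.9 CPM in shCTR, 16.5 and 15.4 in shMETTL3 and 59.9 and 64.9 in shMETTL14 cells, out of sums of 42.8 to 44.5, 16.1 to 17.6 and 60.9 to 66.5. CD14, MPO and ELANE had at most 3 reads in any library, while FCGR3A had between 2 and 9 and ITGAM between 8 and 17. The part of this difference in LYZ in the results was not tested. The shCTR libraries stood further apart than those of the other lines, where the chi-square between replicates averaged 5.52 over genes, against 3.1 in shMETTL3 and 2.59 in shMETTL14, and both knockdowns are compared with that pair.

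The replication genes were abundant in every line. Averaged over the 6 libraries, their levels ran from 15.2 CPM for GINS3 to 671 CPM for MCM7, with a median of 76.8 CPM, and 44 of 45 lay above the median of all tested genes, 15.8 CPM. The lowest count of any member in any library was 238 reads. Summed over the 45 genes, the level was 5173 and 5220 CPM in the shCTR, 5417 and 5355 CPM in the shMETTL3 and 5184 and 4959 CPM in the shMETTL14 libraries. Both shMETTL3 sums stood above those of the other lines, and the shMETTL14 sums overlapped with those of shCTR. In bulk RNA, a change in the share of cells in S phase and a change in RNA per cell cannot be told apart.

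In shMETTL3 cells against shCTR, E2F1, the nucleotide-supply gene RRM2, the helicase genes GINS2 and GINS4, the licensing factor CDC6, the clamp-loader gene RFC2 and the flap nuclease gene FEN1 rose. The ORC genes ORC2, ORC3 and ORC6 and the RPA gene RPA1 fell. These 7 higher calls were 15.6% of the 45 members, where 8.73% of all tested genes were called higher, and the 4 lower calls were 8.89%, where 7.73% of all tested genes were called lower (edgeR's quasi-likelihood test, Benjamini-Hochberg adjustment over 17686 genes, threshold 0.05). The median log2 fold change of the members was 0.033, with 30 of 45 above 0, beside a median of 0.0030 over all tested genes. With library size alone as the scaling, 11 members were higher and 2 lower, beside 2158 and 858 of all tested genes. Both shMETTL3 libraries lay above both shCTR libraries for 20 members and below them for 10. Over all 17686 tested genes the same held for 5075 and 4836, so lack of overlap between 2 and 2 libraries was common. Where it is given for single genes below, it describes the values and is not a test.

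In shMETTL14 cells against shCTR, ORC6 fell and no member was called higher. The single lower call was 2.22% of the members, where 3.26% of all tested genes were called lower. The 0 higher calls by edgeR stand beside 3.43% of all tested genes called higher, and 1 member was higher at an unadjusted p under 0.05 and 0 by DESeq2. The median of the members was -0.054, beside -0.0001 over all tested genes. Both shMETTL14 libraries lay above both shCTR libraries for 4 members and below them for 15, beside 4416 and 4234 of all 17686 tested genes.

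**Figure D1:**
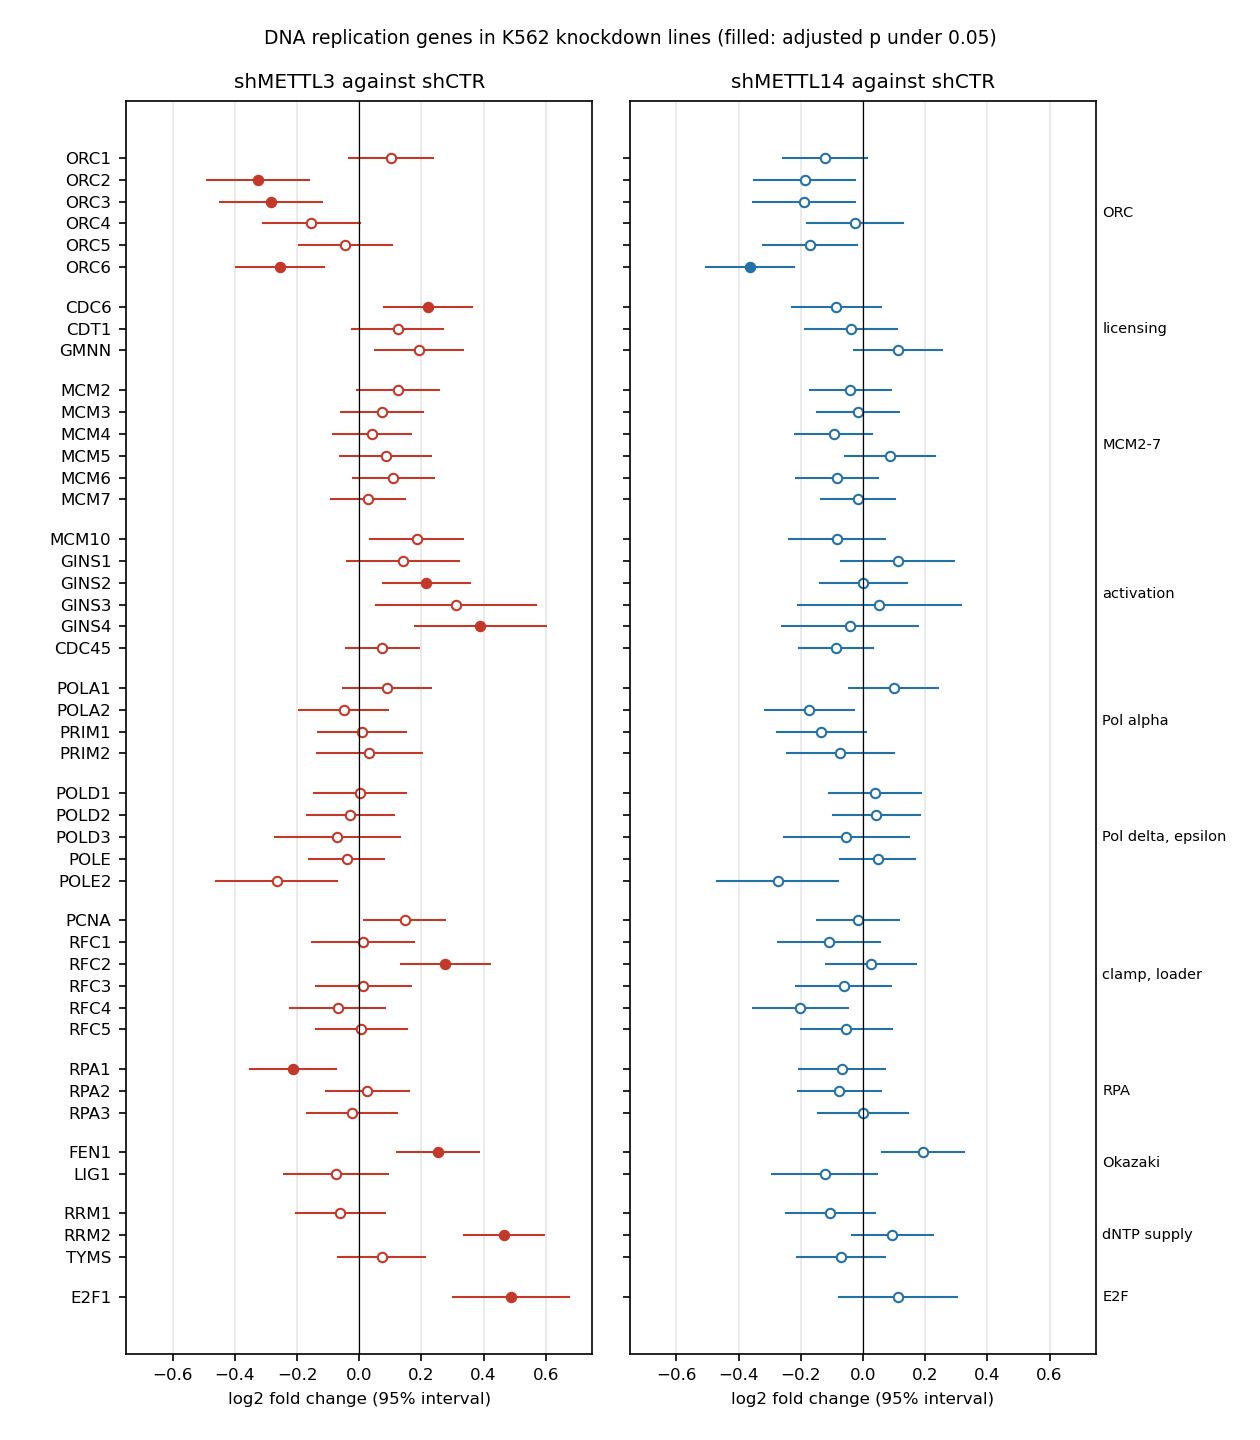
Log2 fold change of each of the 45 genes in shMETTL3 (left) and shMETTL14 (right) against shCTR, by role, with bars for the 95% interval from the edgeR fit and filled points for adjusted p under 0.05. Filled points are 7 to the right and 4 to the left of 0 in shMETTL3 cells and 1, ORC6, to the left in shMETTL14 cells, and most points lie within 0.2 of 0.

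Changes of the replication genes were small. The 95% interval of the log2 fold change lay within 0.5 of 0 for 41 of 45 members in shMETTL3 and 44 of 45 in shMETTL14 cells, and within 1 of 0 for all 45 in both. The furthest bounds were -0.49 and 0.67 in shMETTL3 and -0.51 and 0.32 in shMETTL14 cells. The median size of the log2 change, sign ignored, was 0.0905 for members and 0.1755 for all tested genes in shMETTL3 cells. The same medians were 0.0835 and 0.1407 for shMETTL14. The members were more deeply covered than most genes, which makes their fold changes less noisy, and genes of like coverage were not compared. Deeper coverage also makes a small change easier to call. In every comparison, the share of members called and the share of all tested genes called are therefore not like for like.

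E2F1, the transcription factor that drives many S phase genes (ENSG00000101412, chromosome 20, 33675683 to 33686404, minus strand), had 555 and 648 reads in the shCTR, 852 and 871 in the shMETTL3 and 633 and 681 in the shMETTL14 libraries. As CPM this was 28.1 and 33.8 in shCTR, 43.4 and 43.4 in shMETTL3, and 32.2 and 34.7 in shMETTL14 cells. Both shMETTL3 libraries were above all others, and the shMETTL14 values overlapped with those of shCTR. The rise in shMETTL3 cells was 1.4-fold (log2 0.49, standard error 0.0889, edgeR adjusted p = 0.00084, higher in 2 of 2 libraries). In shMETTL14 cells the log2 value was 0.11, with a 95% interval from -0.08 to 0.30 (edgeR adjusted p = 0.521).

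RRM2, the small subunit of ribonucleotide reductase, which makes the deoxynucleotides for DNA synthesis (ENSG00000171848, chromosome 2, 10120698 to 10131419, plus strand), was at 109 and 106 CPM in shCTR, 148 and 150 CPM in shMETTL3 and 116 and 114 CPM in shMETTL14 cells. The 3 lines did not overlap, and the shMETTL14 values were close to those of shCTR. RRM2 rose 1.38-fold in shMETTL3 cells (log2 0.47, standard error 0.0615, edgeR adjusted p = 3.30e-05), while its log2 value of 0.09 in shMETTL14 cells did not pass the test (edgeR adjusted p = 0.418). RRM1, the large subunit of the same enzyme, gave log2 values of -0.06 and -0.11 in shMETTL3 and shMETTL14 cells, neither past the test. Per kb of the longest transcript, RRM1 and RRM2 stood at 42.9 ± 3.38 and 29.4 ± 0.579 CPM per kb (SD, n = 2) in shCTR. In shMETTL3 cells they stood at 41.1 ± 1.21 and 40.6 ± 0.331. By this measure RRM2 was below RRM1 in shCTR and within the spread of RRM1 in shMETTL3 cells. The transcripts in use were not determined, and a shorter RRM2 transcript would give a higher level per kb, so the order of the 2 genes is uncertain. TYMS, which makes thymidylate, was at 67.2 and 70.5 CPM in shCTR and 69.9 and 74.7 in shMETTL3 cells, and its groups overlapped. It had a log2 value of 0.07, and 65.3 and 65.8 CPM in shMETTL14 cells gave -0.07.

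RRM2 has a processed pseudogene, RRM2P3, whose near-identical sequence can share reads with it, so the split between them is uncertain. A protein-coding gene of the same strand, AC007240.1, covers 20.2% of the RRM2 exons. It is not among the counted identifiers, so no reads were assigned to it, and any that it gave may be in the RRM2 count. RRM2P3 was assigned 181 and 200 reads in shCTR, 85 and 90 in shMETTL3 and 127 and 139 in shMETTL14 libraries, against 2037 to 3010 reads for RRM2. The pseudogene moved the other way from RRM2, by a log2 value of -1.15 (edgeR adjusted p = 4.38e-05) in shMETTL3 and -0.53 (edgeR adjusted p = 0.0332) in shMETTL14 cells. Exons of TYMS overlap those of ENOSF1 on the opposite strand over 39.1% of their length, and the strand setting of the counting is not given in the sources used here.

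The ORC, the 6-subunit complex that marks origins, held 3 of the 4 called falls in shMETTL3 cells and the called fall in shMETTL14 cells. These are 50% and 16.7% of its 6 subunits, beside 7.73% and 3.26% of all tested genes called lower. ORC6 (ENSG00000091651, chromosome 16, 46689643 to 46698394, plus strand) was at 73.1 and 68.3 CPM in shCTR, 59 and 59.6 CPM in shMETTL3 and 54.6 and 55.4 CPM in shMETTL14 cells. Both knockdown lines lay below shCTR without overlap. The log2 fold change was -0.25 (standard error 0.0676, edgeR adjusted p = 0.0138) in shMETTL3 and -0.36 (standard error 0.0681, edgeR adjusted p = 0.00226) in shMETTL14 cells. Both comparisons use the same 2 shCTR libraries, of which replicate 1 had the higher level of ORC2, ORC3 and ORC6. Without that library, ORC2 stayed called lower in shMETTL3 cells, while ORC3 and ORC6 did not. ORC6 stayed called lower in shMETTL14 cells without it.

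ORC2, a core subunit (ENSG00000115942, chromosome 2, 200908973 to 200963680, minus strand), was at 64.9 and 59.4 CPM in shCTR, 47.5 and 51.7 in shMETTL3 and 51.4 and 57.7 in shMETTL14 cells. It fell by 0.33 on the log2 scale in shMETTL3 cells (standard error 0.0778, edgeR adjusted p = 0.00716), and in shMETTL14 cells the value was -0.19 (edgeR adjusted p = 0.167), with every shMETTL14 library below both shCTR libraries. ORC3, another core subunit, was at 83.1 and 73.2 CPM in shCTR, 68.8 and 59.7 in shMETTL3 and 67 and 70.1 in shMETTL14 cells. All 4 knockdown values of ORC3 lay below shCTR, and the log2 values were -0.28 (edgeR adjusted p = 0.0182) and -0.19 (edgeR adjusted p = 0.171).

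ORC4 and ORC5 had log2 values of -0.15 and -0.04 in shMETTL3 and -0.02 and -0.17 in shMETTL14 cells, none past the test. ORC1, the subunit whose level follows the cell cycle, was at 94.1 and 89 CPM in shCTR, 99.8 and 96.8 in shMETTL3 and 83.8 and 84.5 in shMETTL14 cells. The 3 lines did not overlap for ORC1, but neither difference from shCTR passed the test (log2 0.10 and -0.12, edgeR adjusted p = 0.302 and 0.302). Summed over the 6 subunits, the level was 416.7 and 388.6 CPM in shCTR, 370.2 and 359.2 in shMETTL3 and 349.9 and 362.7 in shMETTL14 cells. Per kb of the longest transcript the shCTR order ran from ORC6 at 38.6 ± 1.85 to ORC4 at 7.98 ± 0.309 CPM per kb (SD, n = 2). The longest transcripts of these 2 genes are 1833 and 6710 nt, and the transcripts in use were not determined. ORC3 at 31.1 ± 2.8 and ORC1 at 29 ± 1.15 did not differ beyond their spread.

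Of the licensing factors, CDC6, the ATPase that joins ORC to load MCM2-7 (ENSG00000094804, chromosome 17, 40287633 to 40304657, plus strand), was at 75.4 and 72.9 CPM in shCTR, 88.2 and 84.8 in shMETTL3 and 72.9 and 66.9 in shMETTL14 cells. The shMETTL3 libraries stood above the rest, and the rise was 1.17-fold (log2 0.22, standard error 0.0679, edgeR adjusted p = 0.0297). CDT1, its loading partner, was at 257 and 301 CPM in shCTR, 291 and 316 in shMETTL3 and 266 and 277 in shMETTL14 cells. The shCTR libraries of CDT1 stood far apart and the groups overlapped (log2 0.12 and -0.04, edgeR adjusted p = 0.251 and 0.811). GMNN, the inhibitor of CDT1, had 85 and 85 CPM in shCTR, 102 and 92.3 in shMETTL3 and 91 and 92.7 in shMETTL14 cells. Every knockdown library was above shCTR for GMNN, at log2 values of 0.19 (edgeR adjusted p = 0.0565) and 0.11 (edgeR adjusted p = 0.366) that did not pass the test. With the GC and length trend removed, GMNN was called higher in shMETTL3 cells (0.30, edgeR adjusted p = 0.000771) and CDT1 turned to -0.05, while without shCTR replicate 2 CDT1 was called higher (0.24, edgeR adjusted p = 0.0122).

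**Figure D2:**
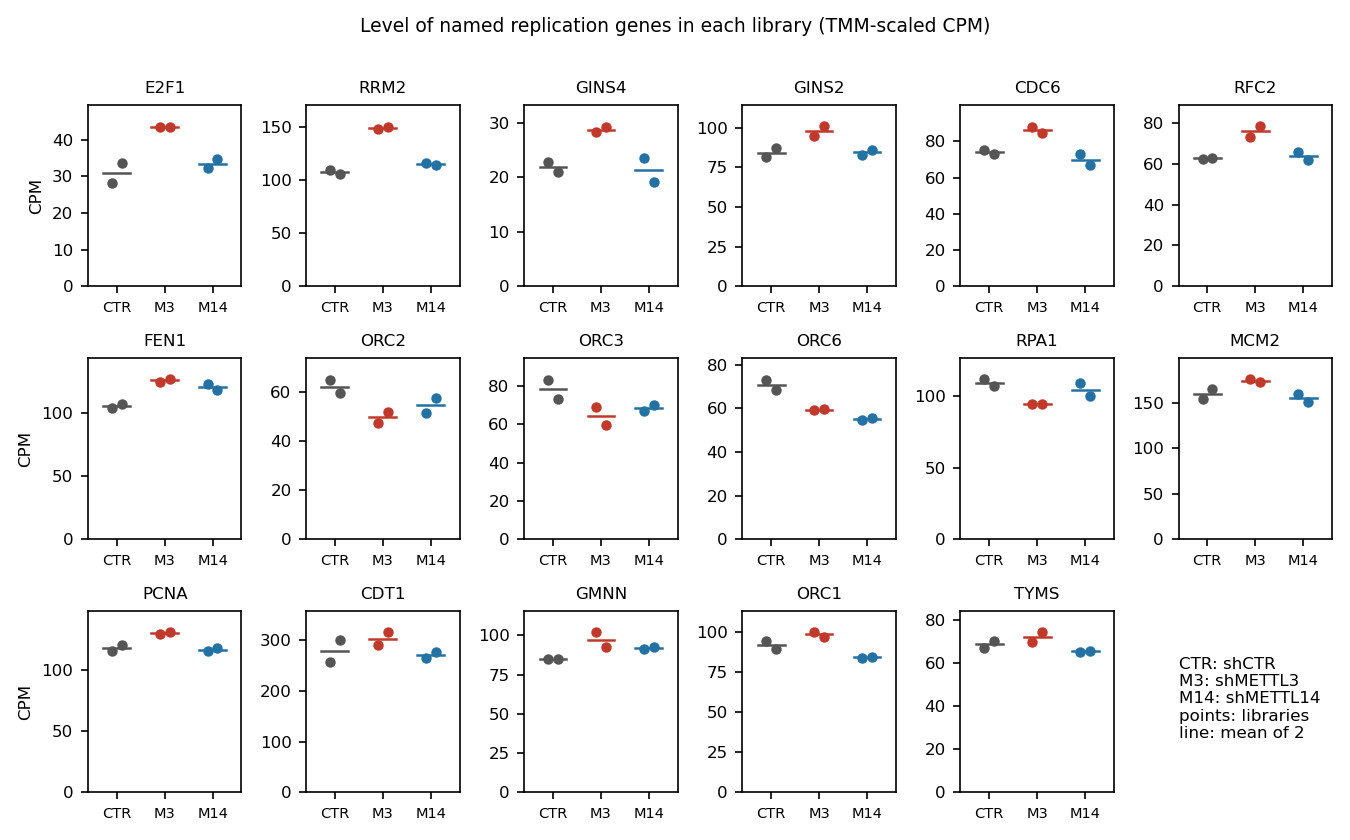
Level of 17 members in each library, as TMM-scaled CPM on axes that start at 0, with a line at the mean of the 2 libraries of shCTR (CTR), shMETTL3 (M3) and shMETTL14 (M14). The shMETTL3 points of E2F1 (43.4 and 43.4 CPM) and RRM2 (148 and 150 CPM) are above all others, and both knockdowns are below shCTR for ORC6.

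The MCM2-7 helicase itself, the ring that unwinds DNA at the fork, had no called member against shCTR in either line (0 of 6 by edgeR, 0 at an unadjusted p under 0.05 and 0 by DESeq2). Shares over all tested genes were 8.73% higher and 7.73% lower in shMETTL3, and 3.43% and 3.26% in shMETTL14 cells. MCM2 was at 154 and 165 CPM in shCTR, 176 and 172 in shMETTL3 and 159 and 151 in shMETTL14 cells. The shMETTL3 libraries were the highest, with a log2 value of 0.12 and a 95% interval from -0.01 to 0.26 (edgeR adjusted p = 0.188), and the shMETTL14 value was -0.04. Over the 6 subunits the log2 values ran from 0.03 (MCM7) to 0.12 (MCM2) in shMETTL3 and from -0.09 (MCM4) to 0.09 (MCM5) in shMETTL14 cells. All 6 were above 0 in shMETTL3 cells, but with the trend of GC content and length removed 4 were, MCM2 moved to 0.02, MCM5 and MCM7 to -0.02 and -0.06, and MCM6 was called higher (log2 0.16, edgeR adjusted p = 0.0284). An antisense gene that is not among the counted identifiers covers 22.7% of the MCM2 exons. No reads were assigned to that gene, and whether reads from it entered the MCM2 count is not known. The 6 proteins enter the ring in equal number. Their mRNA levels per kb of the longest transcript ran from 28 ± 0.786 CPM per kb for MCM5 to 217 ± 1.51 for MCM7 (SD, n = 2) in shCTR. Those transcripts are 4599 and 3084 nt long. The transcripts these cells use were not determined, so part of that range may reflect the lengths chosen. MCM2 at 44.1 ± 2.17 and MCM6 at 41.9 ± 1.23 CPM per kb did not differ beyond their spread.

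Of the 6 genes that turn the helicase on, 2 rose in shMETTL3 cells (33.3%, beside 8.73% of all tested genes called higher). GINS4, a subunit of the 4-part GINS complex, was at 22.9 and 21 CPM in shCTR, 28.4 and 29.2 in shMETTL3 and 23.6 and 19.1 in shMETTL14 cells. GINS2, another subunit, was at 81.6 and 87.1 CPM in shCTR, 94.6 and 101 in shMETTL3 and 83.1 and 85.8 in shMETTL14 cells. For both genes the shMETTL3 libraries were above all others while shMETTL14 overlapped with shCTR. The rises in shMETTL3 cells were 1.31-fold for GINS4 (log2 0.39, standard error 0.101, edgeR adjusted p = 0.012) and 1.16-fold for GINS2 (log2 0.22, standard error 0.0671, edgeR adjusted p = 0.0318). GINS3 gave 0.31 (edgeR adjusted p = 0.0906), MCM10 0.18 (edgeR adjusted p = 0.0894), GINS1 0.14 (edgeR adjusted p = 0.29) and CDC45 0.07 (edgeR adjusted p = 0.406), none past the test. Exons of GINS4 overlap 2 antisense genes with at most 9 reads. Summed over the 6 genes, the level was 521.8 and 536.6 CPM in shCTR, 579.1 and 581.9 in shMETTL3 and 521.9 and 497.8 in shMETTL14 cells. CDC45, at 156 ± 2.26 CPM per kb, far exceeded the 4 GINS genes, which lay between 4.36 ± 0.847 (GINS3) and 31.6 ± 1.44 (GINS2) CPM per kb (SD, n = 2) in shCTR.

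**Figure D3:**
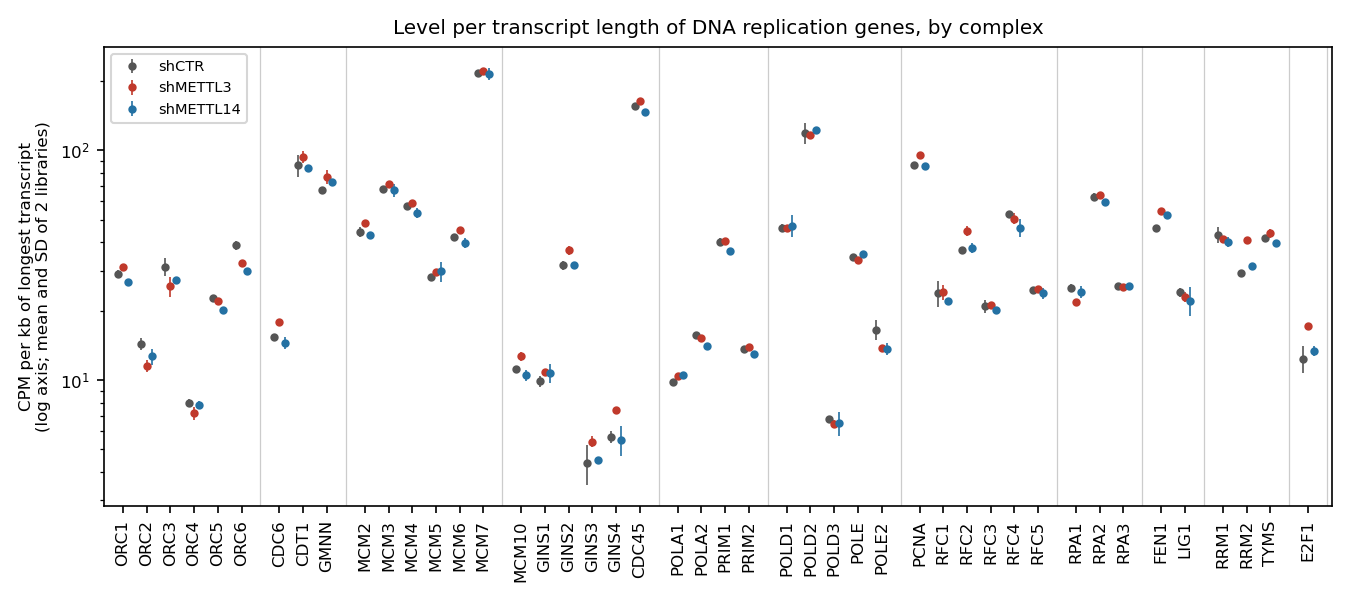
Level of each member per kb of its longest GENCODE transcript, on a log axis, as the mean and SD of 2 libraries in shCTR, shMETTL3 and shMETTL14, with grey lines between roles. By this measure subunits of a complex spread widely, as for MCM5 at 28 and MCM7 at 217 CPM per kb in shCTR. The transcripts in use were not determined. The 3 lines lie close together for each gene.

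At the fork, RFC2, a subunit of the clamp loader, was at 62.5 and 62.6 CPM in shCTR, 73.3 and 78.3 in shMETTL3 and 65.9 and 61.6 in shMETTL14 cells. Only its shMETTL3 libraries stood apart, and it rose 1.21-fold there (log2 0.28, standard error 0.0686, edgeR adjusted p = 0.00894). The other 4 RFC subunits had log2 values between -0.07 and 0.01 for shMETTL3 and between -0.20 and -0.05 in shMETTL14 cells, none past the test. PCNA, the sliding clamp, was at 115 and 120 CPM in shCTR, 129 and 131 in shMETTL3 and 115 and 118 in shMETTL14 cells. The shMETTL3 values of PCNA were the highest, at a log2 value of 0.15 that did not pass the test (95% interval from 0.02 to 0.28, edgeR adjusted p = 0.118), and the shMETTL14 value was -0.02. With the GC and length trend removed PCNA was called higher in shMETTL3 cells (0.23, edgeR adjusted p = 0.00269).

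FEN1, the nuclease that trims flaps from Okazaki fragments, was at 104 and 107 CPM in shCTR, 125 and 127 in shMETTL3 and 123 and 118 in shMETTL14 cells. Both knockdown lines lay above shCTR, with log2 values of 0.25 (standard error 0.0627, edgeR adjusted p = 0.0089) in shMETTL3 and 0.19 (standard error 0.0628, edgeR adjusted p = 0.0724) in shMETTL14 cells, of which the first passed the test. LIG1, the ligase that seals the fragments, gave -0.07 and -0.12 with overlapping groups.

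RPA1, the large subunit of the single-strand binding complex, was at 112 and 107 CPM in shCTR, 94.5 and 94.8 in shMETTL3 and 109 and 100 in shMETTL14 cells. Its shMETTL3 libraries were the lowest, and it fell by 0.21 on the log2 scale (standard error 0.0665, edgeR adjusted p = 0.0324). RPA2 and RPA3, the smaller subunits, had log2 values between -0.02 and 0.03 in shMETTL3 and between -0.08 and 0.00 in shMETTL14 cells, none past the test.

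The polymerases had no called member (0 of 9 by edgeR and by DESeq2 in either knockdown). At an unadjusted p under 0.05, POLE2 was lower in both lines and POLA2 was lower in shMETTL14 cells. POLE2, the second subunit of polymerase epsilon, was at 31.8 and 27.7 CPM in shCTR, 24.8 and 24.7 in shMETTL3 and 23.6 and 25.6 in shMETTL14 cells. All 4 knockdown libraries were below shCTR, at log2 values of -0.27 (edgeR adjusted p = 0.0558) and -0.27 (edgeR adjusted p = 0.0856). The catalytic subunits POLA1, POLD1 and POLE showed log2 values of 0.09, 0.00 and -0.04 in shMETTL3 and 0.10, 0.04 and 0.05 in shMETTL14 cells. The primase genes PRIM1 and PRIM2 gave 0.01 and 0.03 in shMETTL3 and -0.13 and -0.07 in shMETTL14 cells. Protein-coding genes of the same strand that are not among the counted identifiers cover 35.1% of the POLA2 exons and 14.9% of the PRIM1 exons. Any reads from those genes may be in the POLA2 and PRIM1 counts. With the GC and length trend removed, POLD1 and POLE were called lower in shMETTL3 cells (-0.18 and -0.17, edgeR adjusted p = 0.031 and 0.0105) and POLA2 in shMETTL14 cells (-0.20, edgeR adjusted p = 0.044). Without shCTR replicate 2, POLE2 was called lower in both lines (-0.36 and -0.37, edgeR adjusted p = 0.012 and 0.0184).

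The knockdown lines were also compared with each other. The shCTR libraries enter this comparison only through the filter, the scaling and the shared estimate of spread. In a fit on the compared groups alone, 13 members were called higher. Of the 17345 genes tested in that fit, 1549 were called higher and 1356 lower. MCM6, MCM10, GINS2, GINS4, CDC6, ORC1, RFC2, RRM2 and E2F1 were higher in shMETTL3 than in shMETTL14 cells, 9 members or 20%, where 6.65% of all tested genes were called higher. No member was called lower (0 by edgeR and by DESeq2, 1 at an unadjusted p under 0.05), where 5.49% of all tested genes were called lower. The largest differences were in GINS4 (log2 0.43, standard error 0.102, edgeR adjusted p = 0.00721), E2F1 (log2 0.37, standard error 0.0881, edgeR adjusted p = 0.00718), RRM2 (log2 0.37, standard error 0.0613, edgeR adjusted p = 0.000323) and CDC6 (log2 0.31, standard error 0.0681, edgeR adjusted p = 0.00456). MCM10, which helps to start unwinding, had 59.9 and 56.5 CPM in shMETTL3 and 50.3 and 46.3 CPM in shMETTL14 cells, without overlap. ORC6, ORC2 and ORC3, which were lower than shCTR in shMETTL3 cells, differed between the knockdown lines by log2 values of 0.11, -0.14 and -0.09, none past the test. The median of the members in this comparison was 0.105, with 34 of 45 above 0, beside -0.0017 over all tested genes. Both shMETTL3 libraries lay above both shMETTL14 libraries for 25 members and below them for 5, beside 5025 and 5004 of all 17686 tested genes.

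The number of libraries limits these calls. With each library left out in turn and under 7 other settings, 13 alternatives in all, RRM2 and E2F1 were called in shMETTL3 cells, in the direction given above, in 13 of 13, ORC2 and RFC2 in 12, FEN1 in 11, GINS4 and ORC6 in 10, ORC3 in 9, CDC6 in 6, and GINS2 and RPA1 in 5. Without shMETTL3 replicate 1, the calls were RFC2, RRM2 and E2F1 higher and ORC3 lower. Without shMETTL3 replicate 2 they were RRM2 and E2F1 higher and ORC2 lower. The call of ORC6 in shMETTL14 cells was lost without shMETTL14 replicate 1. In the comparison of the knockdown lines, 2 or 3 members stayed called when any of the 4 knockdown libraries was left out, always with RRM2 among them.

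Other replication genes, a list of 50 with the remaining helicase, checkpoint, chromatin assembly and topoisomerase genes, had 5 calls upward and 5 downward in shMETTL3 cells, at a median of -0.021. These are 10% and 10% of the list, near the 8.73% and 7.73% of all tested genes. The histone chaperone genes CHAF1B and ASF1B (log2 0.32 and 0.32) and the checkpoint adaptor gene CLSPN (0.31) rose, and ATAD5, which unloads PCNA, and DBF4, the activator of the CDC7 kinase, fell (-0.30 and -0.28). In shMETTL14 cells 1 was higher, TK1 (0.29), a thymidine kinase gene, and 3 were lower, ATAD5 (-0.39), the nuclease gene DNA2 (-0.24) and the topoisomerase gene TOP2B (-0.24), with a median of -0.042. These are 2% and 6% of the list, beside 3.43% and 3.26% of all tested genes. None of the 50 was called between the knockdown lines (0 by edgeR and by DESeq2, 6 higher and 3 lower at an unadjusted p under 0.05). Of all tested genes, 6.65% were called higher and 5.49% lower there.

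Of 18 genes of the E2F and RB family list, 4 rose and 2 fell in shMETTL3 cells (22.2% and 11.1%, beside 8.73% and 7.73% of all tested genes), with a median of 0.042. E2F7, a repressor E2F that is itself an E2F target, E2F2, an activator E2F, MYBL2, a late cell cycle activator, and E2F5 rose (0.48, 0.46, 0.34 and 0.34), and the pocket protein gene RBL2 fell (-0.29). The called rises thus held activators and repressors. In shMETTL14 cells, E2F8, another repressor, fell by edgeR (-0.39) but was not called by DESeq2. This edgeR call is 5.56% of the list, beside 3.26% of all tested genes. No gene was called higher (0 by edgeR and by DESeq2, 3 at an unadjusted p under 0.05), beside 3.43% of all tested genes, and the median was 0.0066. E2F2, E2F8 and MYBL2 were higher in shMETTL3 than in shMETTL14 cells (0.44, 0.40 and 0.29), or 16.7% of the list, beside 6.65% of all tested genes.

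Among 49 mitosis genes, 3 rose in shMETTL3 cells, or 6.12% of the list, where 8.73% of all tested genes were called higher. The list had 0 falls (0 lower by DESeq2, 4 at an unadjusted p under 0.05), where 7.73% of all tested genes were called lower. Its median was -0.036. The rises were CENPA (0.34), the centromeric histone, ESPL1 (0.22), the protease that separates sister chromatids, and UBE2C (1.23), which was scarce at 0.489 CPM in shCTR and 1.16 in shMETTL3 cells. In shMETTL14 cells ESPL1 rose (0.27) and SPC25, a kinetochore gene, fell (-0.23, with 0 lower by DESeq2), with a median of -0.047. Each is 2.04% of the list, beside 3.43% of all tested genes called higher and 3.26% called lower. PTTG1, the inhibitor of ESPL1's product, had the lower level in shMETTL3 of the knockdown lines (-0.23). It was the only call of the list there, where 6.65% of all tested genes were called higher and 5.49% lower.

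Called genes among the G1 cyclins, CDKs and inhibitors reached a log2 change of 1.03 in size against shCTR, where the replication genes reached 0.49. Of 16 listed, 14 were tested, and CDKN2A and CDKN2B were below the filter. CDKN1A, the CDK inhibitor p21, rose from 35.5 to 72.6 CPM in shMETTL3 cells (log2 1.03, edgeR adjusted p = 2.94e-08), and CDC25A, the phosphatase that activates CDK2, fell from 58.2 to 32 CPM (-0.86, edgeR adjusted p = 1.60e-07). CCND1, cyclin D1, was at 38.7 CPM in shCTR, 52.8 in shMETTL3 (0.45, edgeR adjusted p = 0.00163) and 19.8 in shMETTL14 cells (-0.97, edgeR adjusted p = 2.74e-06), and the knockdown lines differed by 1.41 (edgeR adjusted p = 5.11e-09). CDKN1C, another inhibitor, fell in both lines (-0.26 and -0.57), and CCND3 fell in shMETTL14 cells (-0.26). Against shCTR, the list had 2 calls upward and 2 downward for shMETTL3 (14.3% each, beside 8.73% and 7.73% of all tested genes). In shMETTL14 cells 3 were lower (21.4%, beside 3.26% of all tested genes). The 0 higher calls there (0 by DESeq2, 1 at an unadjusted p under 0.05) stand beside 3.43% of all tested genes. Medians of the list were 0.078 and -0.086.

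**Figure D4:**
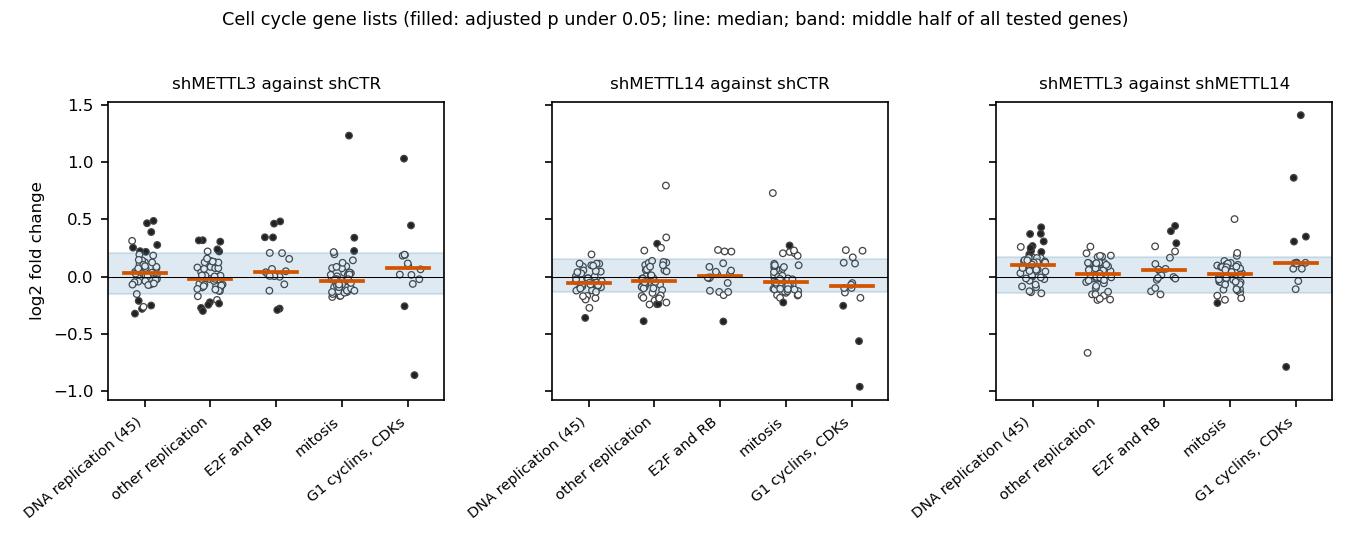
Log2 fold change of the 45 replication genes and 4 other cell cycle lists in 3 comparisons, with filled points for adjusted p under 0.05, a line at the median of each list and a band from the lower to the upper quartile of all tested genes (-0.16 to 0.20 in shMETTL3 against shCTR). Medians of the replication genes are 0.03, -0.05 and 0.11, and the points furthest from 0 in the last list are CCND1, CDKN1A and CDC25A.

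The letters GGACT, a common core of the m6A motif, were counted in the longest transcript of each gene. The members had a median of 1.2 per kb (range 0 to 2.27), beside 0.909 per kb over 16662 tested genes with a transcript. The 7 members that rose in shMETTL3 cells had a median of 0.775 per kb and the 4 that fell 0.964, both below the median of the members. These letters are not m6A measurements.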

How the data were processed

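RNA-seq of poly(A)-selected RNA from K562 cells was analysed in 6 libraries, 2 each of shCTR, shMETTL3 and shMETTL14, grouped by the submitters' titles. The authors deposited 1 table of raw counts, whole-number reads per gene that were not normalized. HTSeq 0.6.1 and the genome build hg38 are named in the submitters' processing notes. The aligner, annotation release and strand setting are not given in the sources used here. Identifiers without a gene, 986 in number, held 0.635% to 0.703% of the counts of a library. Symbols came from a gene name table for 56558 identifiers and from GENCODE release 29 on GRCh38 for 438, and positions and lengths from GENCODE. Promoter bases came from RefSeq on GRCh38.p14.

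The count test was edgeR 4.0.16 under R 4.3.3. Genes were kept by filterByExpr with a minimum count of 10, TMM scaling was applied, and a single model of the 6 libraries gave each pair of lines by quasi-likelihood. Adjusted p-values are Benjamini-Hochberg values over 17686 genes, called under 0.05. CPM uses the TMM-scaled library size, and "per kb" divides it by the longest transcript. Which transcript these cells use was not determined, so levels per kb of different genes compare only roughly. The SD given with them covers the 2 libraries and not this choice of length. The steps were tested on simulated data. Every member is accounted for by role. Values in each library are given for members past the threshold in a knockdown against shCTR and for MCM2, PCNA, CDC6, CDT1, GMNN, ORC1, RRM2, TYMS and E2F1. Of every other list, at most 5 called genes per comparison are named. POLE2, GINS3, MCM10 and the remaining members named outside this rule were named for their role after their values were seen. The members and lists were chosen with earlier results of these data known. Alternatives were DESeq2 1.42.0, its size factors, library size alone, no low-count filter, a fit limited to the pair of groups compared, a block for the replicate number, a trend with GC content and length removed (mgcv 1.9.3), and each library left out. In these counts, PCR copies cannot be told from separate molecules.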

Additional observations from a re-analysis of the deposited data

Results flagged for a closer look

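Between the effects of the shMETTL3 and shMETTL14 knockdowns, 9 members differed in the direct test of the difference, which is the comparison of shMETTL3 with shMETTL14 cells. These are 20% of the members, where 6.65% of all tested genes were called higher and 5.49% lower. The log2 differences were 0.19 for MCM6, 0.27 for MCM10, 0.21 for GINS2, 0.43 for GINS4, 0.31 for CDC6, 0.22 for ORC1, 0.25 for RFC2, 0.37 for RRM2 and 0.37 for E2F1, each higher in 2 of 2 shMETTL3 libraries than in both shMETTL14 libraries (edgeR's quasi-likelihood test, adjusted p under the threshold). MCM6 passed narrowly (edgeR adjusted p = 0.0489). DESeq2 called 6 members, without MCM6, MCM10 and GINS2, and without the filter on low counts MCM6, GINS2 and ORC1 were not called.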

How the results depend on the processing

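Against shCTR, the 7 higher and 4 lower members of shMETTL3 cells became 11 and 2 with library size alone, with a median of 0.0883. With the GC and length trend removed, 1625 and 1892 of all 17686 tested genes were called higher and lower. The members then had 12 and 5, with a median of 0.0621. With each library left out the counts ran from 2 to 7 higher and from 1 to 5 lower, and the median from 0.0253 to 0.0597. In shMETTL14 cells, 823 and 852 of all 17686 tested genes were called higher and lower with the trend removed. The members then had 1 higher and 2 lower, and library size alone gave 1 higher and a median of -0.0280. Leaving out libraries gave 0 to 1 higher, 0 to 4 lower and medians from -0.0880 to -0.0249. Between the knockdown lines, the trend removed gave 13 higher and 1 lower, library size alone a median of 0.1349, and leaving out libraries 2 to 13 higher and medians from 0.0751 to 0.1207. With the replicate number as a block, the counts were 8 higher and 4 lower, 0 and 1, and 10 and 0. Over all tested genes the block gave 1690 and 1574, 735 and 724, and 1330 and 1148. Same-numbered libraries showed little shared deviation (r = 0.0614, 0.00511 and -0.02 over genes). The labels give only a replicate number, and whether such libraries were prepared together is not known. The medians and the changes called in the reported fit kept their direction under these alternatives. POLD1, at 0.0023 and not called in shMETTL3 cells, was called lower (-0.18) with the trend removed. The cause of the differences was not tested.

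Over all tested genes, the 1544 higher and 1368 lower calls of shMETTL3 cells were 873 and 1008 by DESeq2, 2158 and 858 with library size alone, and 690 to 1765 and 412 to 1804 with a library left out. For shMETTL14 cells, 607 and 577 became 359 and 404 by DESeq2, 387 and 379 without the filter on low counts, 743 and 443 with library size alone, and 196 to 951 and 145 to 962 with a library left out. Between the knockdown lines, 1177 and 971 became 686 and 641 by DESeq2, 1399 and 754 with library size alone, 1476 and 1590 with the trend removed, and 503 to 1520 and 395 to 1433 with a library left out. The lowest count of a member was 238 reads, and each line had 2 libraries, which sets the precision.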
